A study of Arabidopsis thaliana with 24 samples.

Results

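Shoots of the Arabidopsis thaliana mutant pnp1-1 were compared after 1 week on medium without phosphate (-P) and 1 week on medium with phosphate (+P). The comparison rests on 6 of the 24 arrays of the study, 3 for each medium, which were taken by their group labels. In pnp1-1, a Columbia-0 (Col0) line, the gene of the chloroplast enzyme polynucleotide phosphorylase carries a null mutation; it is the one mutant line among these samples. All seedlings, mutant and wild type (WT), first grew for 2 weeks on full medium with 0.5% sucrose at 22 °C and a 16 h photoperiod. They were then rinsed and moved to fresh +P or -P medium, where -P lacked KH2PO4 and K2SO4 made up the potassium. Each array holds labelled total RNA from at least 4 seedlings whose roots had been cut off, and the design calls the 3 arrays of a group biological replicates. The 6 WT arrays at 1 week and the 6 pnp1-1 arrays at 3 h after transfer served for comparison.

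Plants that run short of phosphate release phosphatases, raise phosphate uptake, replace phospholipids in their membranes with galactolipids and sulfolipids, and often accumulate starch and anthocyanins. Polynucleotide phosphorylase trims and degrades chloroplast RNA from its 3′ end, and it uses inorganic phosphate as it does so. The kit named for labelling primes on poly(A), and in chloroplasts short A-rich tails mark RNA for decay. On such arrays the signal of a plastid gene may thus depend on tails as well as on the amount of its transcript.

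Values are probe set intensities, and 16 was taken as the upper edge of background; between 40.3% and 41.5% of the 22746 probe sets lay under it on each array at 1 week. One array of each medium, +P replicate 2 and -P replicate 1, had a raised lower quartile (6.44 and 6.45, against 5.41 to 5.76 in the other 4 pnp1-1 arrays). Of the probe sets, 13513 could be assigned to 1 gene here. The transcript of PNP1 itself was not analysed here, because no probe set was assigned to it. Rubisco activase (RCA), the leaf marker measured of 6 listed, had mean intensities of 26947 on +P and 23308 on -P. Of 9 listed root markers 2 were measured. The root hair expansin EXPA7 was at background, with means of 3.47 on +P and 3.44 on -P. PYK10, a beta-glucosidase abundant in roots and young seedlings, read 9550 to 11246 on +P and 8160 to 8984 on -P in pnp1-1, against 857 to 1138 and 987 to 3027 in WT. The part of PYK10-containing tissue in the results below was not tested.

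After 1 week without phosphate, 214 probe sets (0.941% of those tested) differed between the media in pnp1-1, at an adjusted p under 0.05 by limma with Benjamini-Hochberg adjustment. Rises outnumbered falls. There were 186 rises (0.818%), with a median log2 change (-P minus +P) of 2.11, and 28 falls (0.123%), with a median of -1.79. Over all probe sets the median was -0.02. The change was at least 4-fold for 100 of the rises and 13 of the falls. In all 214 the 3 arrays of one medium lay above the 3 of the other, which held for 9.29% of all probe sets. The 214 were called on these same arrays, so their separation largely follows from that choice and is a description. Of the rises, 84 started from a mean under 16 on +P, so that their fold depends on the background correction. Gene names or locus codes could be given to 92 of the called probe sets, 77 that rose and 15 that fell; only 11 carry a gene name, and the other 81 are known here by locus code. In RNA from whole shoots, more cells of a type and more transcript per cell cannot be told apart.

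AT5G20790 showed the largest rise of a probe set with 1 gene. Its intensities were 12.4, 39.7 and 18.5 on +P and 2989, 6244 and 5064 on -P. The groups were far apart, from near background on +P to among the bright signals on -P, and the log2 change was 7.77 ± 1.01 (SE, n = 3 and 3; adjusted p = 0.000271). AT1G08310 went from 12.9, 6.04 and 8.95 to 1328, 1152 and 1060.0. All +P arrays were at background, and the change of 7.05 ± 0.61 (adjusted p = 1.86e-06) was 6.20 with levels under 16 set to 16. AT2G04460 read 8.80, 9.30 and 17.56 on +P and 839, 1090.4 and 872 on -P, a change of 6.36 ± 0.55 (adjusted p = 1.99e-06). AT1G26390 read 14.3, 26.8 and 31.3 on +P and 995, 1481 and 1645 on -P, a change of 5.87 ± 0.72 (adjusted p = 0.000134). These 4 loci were off or near background in every +P array and bright in every -P array.

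Among the rises with a gene name, PRX52, a secreted class III peroxidase, changed most. Its +P arrays read 14.7, 71.7 and 167, and its -P arrays 1590.4, 2047 and 2362. The -P values were close together and the +P values were spread over more than 10-fold. The error of the change draws on all 24 arrays, among which the pnp1-1 +P arrays at 3 h were spread further (3.9, 301.5 and 4.1). The change of 5.14 ± 1.12 had an adjusted p of only 0.0307 by limma. That call was lost when any one of 5 arrays was left out; the adjusted p was then 0.209 (+P replicate 1), 0.0894 (+P replicate 2), 0.0666 (-P replicate 1), 0.114 (-P replicate 2) and 0.121 (-P replicate 3). FHL, which with FHY1 carries phytochrome A into the nucleus, rose from 3.75, 4.22 and 7.62 to 78.3, 67.3 and 112. Its arrays were at background on +P and moderate on -P, and the change was 4.09 ± 0.22 (adjusted p = 4.23e-09), or 2.39 with the floor of 16. SAL2, of the inositol polyphosphate 1-phosphatase family, rose from 10.02, 10.4 and 9.50 to 69.7, 69.4 and 130. It too left the background on every -P array, with a change of 3.10 ± 0.26 (adjusted p = 1.36e-06), or 2.42 with the floor.

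Other loci followed the same course, up from background to a moderate level. AT1G67600 rose by 4.54 ± 0.43 on the log2 scale, from 5.56 to 9.60 on +P to 167 to 196 on -P (adjusted p = 6.05e-06). AT5G63130 rose by 4.15 ± 0.43, from 6.95 to 7.68 to 64.7 to 194 (adjusted p = 1.57e-05). AT5G17340, AT3G43110 and AT4G37290 also had +P arrays at background, and rose by 4.32, 4.24 and 3.88 (2.29, 2.36 and 2.72 with the floor). The -P arrays were spread in AT3G43110, at 23.2, 86.5 and 275, and in AT5G17340, at 155, 109 and 28.6. A second kind of locus was already above background on +P. AT1G13750 rose from 56.5 to 76.7 to 800.1 to 1338, by 4.05 ± 0.51 (adjusted p = 0.000209). AT1G23140 rose from 49.4, 103 and 149.9 to 1184, 1201 and 1188, by 3.71 ± 0.67 (adjusted p = 0.00678). Its -P arrays were nearly equal while the +P arrays differed, and without +P replicate 1 the adjusted p was 0.0536. AT1G68620 rose by 4.46 ± 0.83 (adjusted p = 0.00797), from 23.5 to 24.5 to 377 to 695.

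**Figure D1:**
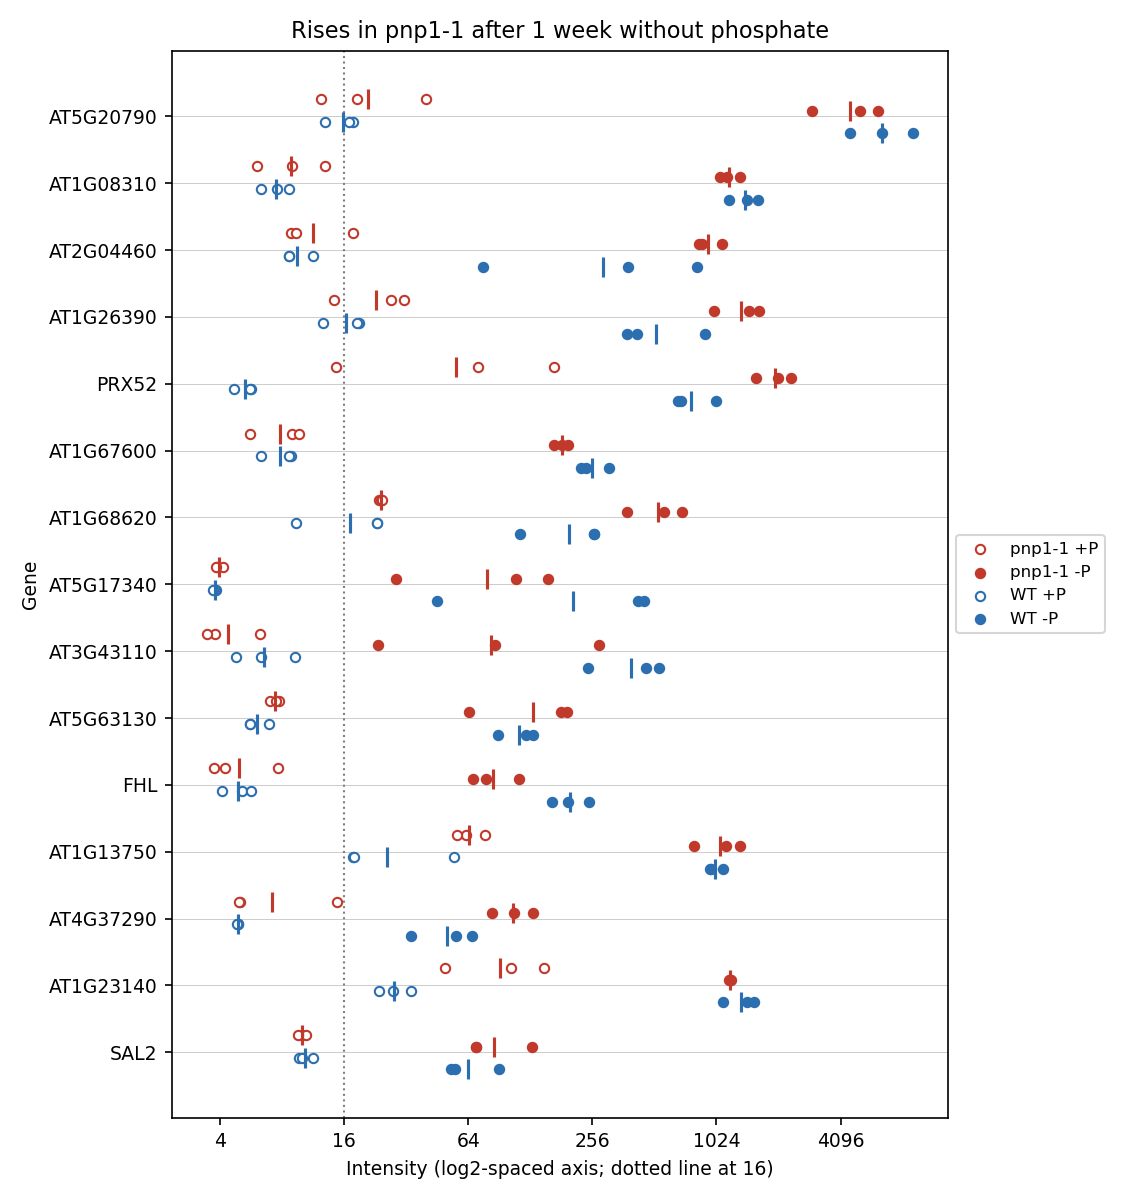
Intensity (log2-spaced axis) of the 15 genes with the largest rises in pnp1-1, by gene. Open circles are +P arrays, filled circles -P arrays, red pnp1-1 and blue WT, 3 arrays per group, with a bar at the mean of log2 values; in each row the filled red circles lie to the right of the open ones.

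Some rises were found in genes that were bright on both media, with both means well above 16. Of the 77 rises with 1 gene, 13 had a +P mean of at least 256, with log2 changes from 0.79 to 2.37; the 5 described here were chosen after their values were seen. ChiC, a class V chitinase, read 737, 810.0 and 635 on +P and 4036, 3381 and 3840.4 on -P. The media were well apart and the change was 2.37 ± 0.36 (adjusted p = 0.00122). AT2G42690 read 583, 669 and 1461 on +P and 2966, 2577 and 3182 on -P, a change of 1.80 ± 0.35 (adjusted p = 0.0123). That call was lost without +P replicate 1 (adjusted p = 0.102), +P replicate 2 (0.0886) or -P replicate 3 (0.0642). AT1G22410 rose 2.06-fold, from 2419.9, 2463 and 2955 to 5368, 5139 and 5545 (log2 change 1.04 ± 0.18, adjusted p = 0.00487). AT3G53560 rose 1.72-fold, from 1903, 1667 and 1980.3 to 3253, 3128 and 3166 (0.79 ± 0.09, adjusted p = 0.000105). AT5G61510 rose 2.101-fold, from 519 to 650.1 to 1017 to 1355 (adjusted p = 0.00437). In the last 3 genes changes of about 2-fold passed the test.

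Of the remaining called genes with a name, 4 rose to low levels. OCT1, an organic cation and carnitine transporter of plant membranes, read 5.83, 6.38 and 4.55 on +P and 86.5, 12.3 and 105 on -P. One -P array, replicate 2, stayed under 16, and the change of 3.12 ± 0.52 (adjusted p = 0.00297) was 1.72 with the floor, where the adjusted p was 0.0586. UGT73D1, a UDP-glycosyltransferase, read 5.78 to 7.70 on +P and 11.6, 58.1 and 24.4 on -P (1.97 ± 0.34, adjusted p = 0.00469); with the floor the adjusted p was 0.222. AGL19, a MADS-box activator of flowering, went from 10.8 to 12.4 to 19.3 to 33.5, a change of 1.03 ± 0.19 (adjusted p = 0.00724). CXE20, a carboxylesterase, was below 6 on all 6 arrays, and with the floor it had no change. Both probe sets of AT3G44510 rose, by 3.17 ± 0.41 (adjusted p = 0.00025) and 2.85 ± 0.48 (adjusted p = 0.00307).

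The strongest fall was that of AT1G73600, entered in the list of membrane lipid genes as a phosphobase N-methyltransferase, an enzyme of the path to phosphocholine. Its +P arrays read 321, 534 and 232 and its -P arrays 13.0, 8.20 and 8.72. The signal went from clearly present to background on every array, a log2 change of -5.13 ± 0.64 (adjusted p = 0.000181), or -4.42 with the floor. AT3G56360 fell from 3693, 4947 and 4625 to 856, 764 and 491. Bright on all 3 +P arrays and lower on all 3 -P arrays, it had a change of -2.68 ± 0.53 (adjusted p = 0.0132). That call was lost without +P replicate 2 (adjusted p = 0.0741), +P replicate 3 (0.0556) or -P replicate 3 (0.0888). Both of these genes fell in WT as well, by 2.55 and 2.61 on the log2 scale (adjusted p = 0.0359 and 0.0102).

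A second group of falls began from an intensity on +P that pnp1-1 had and WT did not. AT1G22440 read 99.8, 171 and 68.0 on +P and 10.04, 11.98 and 18.1 on -P in pnp1-1, and 4.46 to 10.54 on all 6 WT arrays. pnp1-1 was thus above background on +P alone, and its change was -3.02 ± 0.47 (adjusted p = 0.00144). AT1G67330 read 55.5, 82.2 and 69.4 on +P and 16.0, 21.2 and 25.4 on -P, beside 17.7 to 25.9 on the WT arrays of both media; its change was -1.73 ± 0.24 (adjusted p = 0.00044). cwINV6, named as a cell wall invertase, read 59.3, 74.5 and 33.1 on +P and 12.6, 11.3 and 9.50 on -P, against 5.44 to 13.2 in WT. Its change was -2.25 ± 0.23 (adjusted p = 1.36e-05), or -1.72 with the floor. UGT71C2, a UDP-glycosyltransferase, read 33.1, 53.1 and 27.1 on +P and 10.8, 10.3 and 9.89 on -P, against 6.60 to 10.6 in WT (-1.81 ± 0.26, adjusted p = 0.000575). In these 4 genes the pnp1-1 -P arrays lay within or close to the range of the WT arrays.

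The pattern held for more of the falls. In 16 of the 28 called falls, and in 10 of the 15 with 1 gene, all 3 pnp1-1 +P arrays lay above all 3 WT +P arrays. The same held for 57 of the 186 rises and 22 of the 77 with 1 gene, and for 12.1% of all probe sets and 10.7% of those with 1 gene. The median intensity of the 28 was 98.7 on +P and 19.7 on -P in pnp1-1, and 35.8 and 27.1 in WT. Since the falls were chosen by a contrast that uses the same pnp1-1 +P arrays, these levels are a description. AT2G44380 (-2.13, from 48.7 to 87.1 to 14.7 to 18.8), AT3G55840 (-2.20), AT1G63530 (-1.71) and AT5G48430 (-3.75) were among the 10 with 1 gene. The WT +P arrays read at most 19.6 in AT3G55840 and 19.3 in AT1G63530. WT was not without signal in the others. Its +P arrays read 34.2, 7.68 and 12.15 in AT2G44380 and 69.2, 16.7 and 11.3 in AT5G48430. The WT changes of these genes were -0.96 and -1.46, and neither was called. Single arrays decided 3 of the pnp1-1 calls named here: AT5G48430 was lost without any of the 6 arrays in turn (adjusted p from 0.0781 to 0.202). AT3G55840 was lost without +P replicate 1 (0.0611), +P replicate 2 (0.118), -P replicate 2 (0.0921) or -P replicate 3 (0.100). AT1G63530 was lost without +P replicate 1 (0.118), +P replicate 2 (0.133), -P replicate 1 (0.124) or -P replicate 3 (0.100).

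The other 2 named falls were small and in bright genes. AT1G72160 fell 1.86-fold, from 4214, 4539 and 3871 to 2537, 2043 and 2219 (-0.90 ± 0.17, adjusted p = 0.00765). CUL4, the scaffold of a class of nuclear ubiquitin ligases, fell 1.37-fold, from 1321, 1274 and 1292 to 973, 861 and 1004 (-0.46 ± 0.10, adjusted p = 0.0396). The media did not overlap in either gene. The CUL4 call was lost without any 1 of the 6 arrays (adjusted p from 0.0579 to 0.241), and that of AT1G72160 without +P replicate 2 (0.0523) or -P replicate 2 (0.0537).

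**Figure D2:**
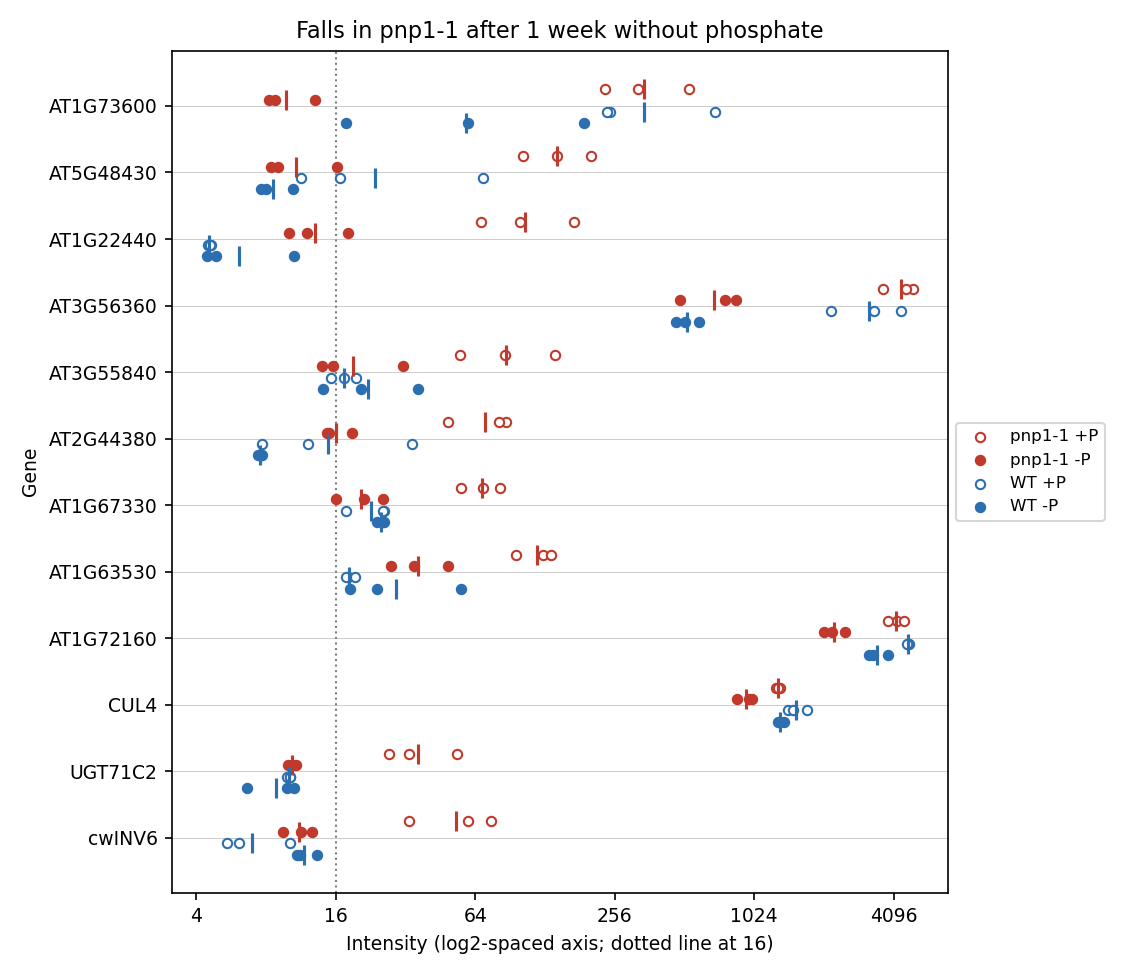
Intensity (log2-spaced axis) of the 10 genes with the largest falls in pnp1-1 by the rule used here, with UGT71C2 and cwINV6 added. Symbols are as for the rises; in most rows the open red circles (pnp1-1 +P) stand alone to the right, and AT1G73600, AT3G56360, AT1G72160 and CUL4 also show WT +P arrays at that level.

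Of the 25 genes named by size, 9 of the 15 rises and 2 of the 10 falls kept their call under all 19 other settings. Those 11 were AT5G20790, AT1G08310, AT2G04460, AT1G26390, AT1G67600, AT5G63130, FHL, AT1G13750, SAL2, AT1G73600 and AT1G67330.

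The response of WT to the same treatment, measured on other arrays, was then set beside it. In WT 781 probe sets (3.43%) were called, 423 higher (1.86%) and 358 lower (1.57%). Of the 186 rises in pnp1-1, 129 were called higher in WT too, 183 had the same sign there, and their median log2 change was 1.78 in WT against 2.11 in pnp1-1. Of the 28 falls, 6 were called lower in WT and 19 had the same sign, with a median of -0.23 in WT against -1.79. Starting from the 423 WT rises, 129 (30.5%) were called in pnp1-1 and 401 had the same sign, with a median of 0.85 against 1.76 in WT. From the 358 WT falls, 6 (1.68%) were called in pnp1-1 and 288 had the same sign, with a median of -0.15 against -0.75. Beside these counts of signs, 8141 of all 22746 probe sets were positive in pnp1-1 and 12864 in WT. Each set was chosen for its size in one genotype, which makes the other look smaller, so these medians do not rank the genotypes. The WT count rests on single arrays: with 1 array left out it was 1273 (+P replicate 1), 276 (+P replicate 2), 331 (+P replicate 3) and 476 (-P replicate 3). WT +P replicates 2 and 3 were also the closest pair of arrays at 1 week, with 404 identical values, and with both averaged as 1 sample the WT count was 292.

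The difference between the 2 responses, tested itself as an interaction, was called for 18 probe sets (0.0791%). The pnp1-1 change was the more positive in 12 (0.0528%) and the more negative in 6 (0.0264%). With levels under 16 set to 16, 33 were called, and 15 of these (45.5%, against 66.7% in the main fit) were more positive. The lean to positive differences thus did not hold with that floor. CXE20, at background throughout, was among the 12 and had a difference of 0 with the floor. In the main fit the largest difference was that of AT5G09570. In pnp1-1 it read 290, 276 and 435 on +P and 1187, 910 and 1147 on -P, and in WT 8.34, 8.26 and 8.97 on +P and 472, 877 and 664 on -P. It rose in both genotypes, from background in WT and from a higher level in pnp1-1, with changes of 1.72 ± 0.39 (adjusted p = 0.0419) and 6.25 ± 0.39 (adjusted p = 2.46e-08) and a difference of -4.54 ± 0.55 (adjusted p = 0.000824). ChiC showed the same arrangement, with WT at 53.0 to 89.4 on +P and 1701 to 2595 on -P. Its difference of -2.48 ± 0.51 did not pass the test (adjusted p = 0.108).

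AT1G26410 went the other way. It rose from 10.3, 16.4 and 12.8 to 99.1, 78.1 and 116 in pnp1-1 and from 7.79 to 11.4 to 16.0 to 17.0 in WT. The WT arrays stayed near background on -P, and the difference was 2.12 ± 0.23 (adjusted p = 0.000183). In the TAIR10.1 order of genes (RefSeq) it lies 2 loci from AT1G26390, one of the large rises. Of the genes near AT1G26390, AT1G26380 had a change of 3.91 ± 1.09 (adjusted p = 0.152), AT1G26400 one of -0.03 at background, and AT1G26420 one of 1.47 ± 0.45 (adjusted p = 0.228). Over 24 named genes, 72 neighbours within 3 loci were measured and 2 were called, beside 0.941% of all probe sets. One was AT1G26410, and the other was AT1G22410, a rise 3 loci from the fall of AT1G22440.

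Called differences also concerned cwINV6 (-3.005 ± 0.32, adjusted p = 0.000183) and AT1G67330 (-1.87 ± 0.34, adjusted p = 0.0402), where the pnp1-1 +P level stood above the other 3 groups. RR16, a type-A response regulator of cytokinin signalling, read 17.35, 19.2 and 25.7 on +P and 28.0, 31.3 and 27.9 on -P in pnp1-1, a change of 0.50 ± 0.24 that did not pass the test (adjusted p = 0.906). In WT it fell from 53.7, 65.8 and 59.2 to 18.04, 17.3 and 23.2, and the difference was 2.12 ± 0.34 (adjusted p = 0.0165). cwINV6, RR16 and CXE20 were named after their values were seen. AT1G67330 lost this call without any 1 of 9 of the 12 arrays (adjusted p from 0.0528 to 0.166), and RR16 without WT +P replicate 2 (0.0719) or the pnp1-1 arrays +P replicate 1 (0.0699), +P replicate 2 (0.0581) or -P replicate 2 (0.0629). With 1 pnp1-1 array left out the count of 18 became 9 (+P replicate 1), 29 (+P replicate 3), 61 (-P replicate 1) or 11 (-P replicate 2), and with 1 WT array left out 48 (+P replicate 1) or 11 (+P replicate 2). The -P arrays of the genotypes that share a replicate number deviated together (correlations of 0.546, 0.623 and 0.600), and the +P arrays did not (-0.521, 0.184 and -0.440). With the replicate number as a block in the 4 groups fitted alone, 2 differences were called, both negative, against 3 in the same groups without the block. AT5G09570 kept its call with the block (adjusted p = 0.0157). AT1G26410 (0.142), cwINV6 (0.132), RR16 (0.0671), AT1G67330 (0.242) and CXE20 (0.357) lost theirs.

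**Figure D3:**
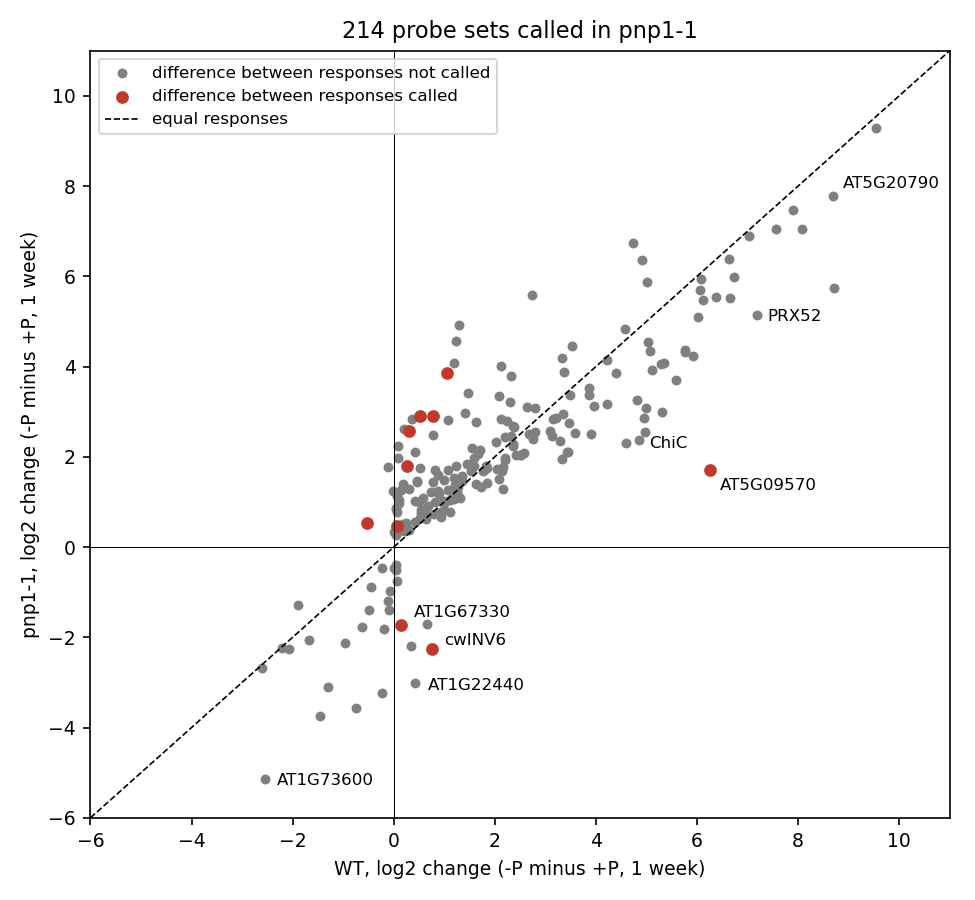
Log2 change (-P minus +P, 1 week) in pnp1-1 against that in WT for the 214 probe sets called in pnp1-1; the dashed line marks equal changes. Red points are those with a called difference between the genotypes; many rises lie near the line, while falls such as AT1G22440 and cwINV6 lie at small WT changes.

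At 3 h after transfer, 2 probe sets (0.00879%) were called in pnp1-1. The 1-week rises had a median log2 change of 0.01 at 3 h, and the 1-week falls one of -0.05. None of the 214 was called at 3 h, where 283 probe sets had an unadjusted p under 0.05. A test of the difference between the times draws on the 1-week arrays that also chose the rises and falls. Its overlap with them is therefore a description. The difference between the 1-week and 3 h changes, each taken within its own time, was called for 83 probe sets (0.365%; 75 or 0.33% more positive at 1 week, 8 or 0.0352% more negative), including 75 of the rises and 5 of the falls. AT1G08310, for example, read 8.80, 17.3 and 25.6 on +P and at most 21.5 on -P at 3 h, with overlapping groups, and the difference between the times was 6.78 ± 0.86 (adjusted p = 0.000548). AT1G73600 was still bright at 3 h, at 1231, 509.9 and 796 on +P and 755, 353 and 1044 on -P; its difference was -4.85 ± 0.91 (adjusted p = 0.023). For AT5G20790 the 3 h arrays ran from 53.5 to 764 without regard to medium. Levels at 3 h and 1 week are not compared. The labels give no processing batch, and if the times were processed apart, this could not be told apart from time.

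Known genes of the phosphate response and of related pathways were poorly covered, since 35 of 309 listed genes (36 probe sets) were measured under a probe set with a gene. Of the 36, 0 were called higher and 1, AT1G73600, lower in pnp1-1. An unadjusted p under 0.05 was found for 4 of the 36, beside 1258 of all 22746 probe sets. The median log2 change of the 36 was 0.04, beside -0.02 over all probe sets. Of the phosphate signalling genes, LPR2, a multicopper oxidase of the root response to low phosphate, had means of 1652 on +P and 1582 on -P (-0.06 ± 0.39). LPR1 was at background on both media. SIZ1, a SUMO ligase, had a change of 0.02 ± 0.20 by its brighter probe set. No listed phosphate transporter, phosphatase or senescence gene was measured.

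All 5 measured genes of the late anthocyanin pathway had positive changes (median 0.75), and 0 were called. Of the 5, 2 had means under 16 on both media. With the floor of 16 the changes were 0 for 5MAT, 0.18 for UGT75C1 and 0.27 to 1.64 for the others. Dihydroflavonol reductase (DFR) read 11.8, 4.56 and 288 on +P and 296, 10.6 and 475 on -P. The arrays of each medium spanned background to bright, and the change of 2.197 ± 2.13 was about the size of its error. Of the starch and sugar list 2 genes were measured, APL4 and APL3, and 0 were called. APL4 had means of 15.8 on +P and 14.9 on -P (-0.08 ± 0.40). APL3, a large subunit of the starch enzyme ADP-glucose pyrophosphorylase, read 28.4, 12.2 and 36.9 on +P and 142, 37.8 and 141 on -P. The media did not overlap, and the change was 1.96 ± 0.78 (adjusted p = 0.613). CCS, the copper chaperone of superoxide dismutase, read 1243, 1411 and 1105 on +P and 363, 374 and 328 on -P, again without overlap (-1.81 ± 0.49, adjusted p = 0.121). COR47, a dehydrin, read 4716, 4442 and 4451 on +P and 3072, 1837 and 1667 on -P (-1.103 ± 0.35, adjusted p = 0.289). Of the 4 cold and dehydration genes 0 were called; the other changes were 0.60 ± 0.99 for the dehydrin LTI30, -0.35 ± 0.90 for COR15A and 0.16 ± 1.33 for COR15B. The antenna genes LHCB4.1, LHCB4.2 and LHCB4.3 had changes of -0.01 ± 0.11, 0.05 ± 0.55 and 0.74 ± 0.46, and RCA one of -0.21 ± 0.17, with 0 of the 4 called. LHCB4.3 read 393, 533 and 742 on +P and 956, 779.8 and 979 on -P, so that its media did not overlap (adjusted p = 1.00).

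Gene families were chosen by gene name after the files were seen, and their counts stand beside the 0.941% called over all probe sets. Of 47 UDP-glycosyltransferases, UGT73D1 rose and UGT71C2 fell, with a family median of 0.06. Among 23 cytochromes P450, 29 serine carboxypeptidase-like proteins, 20 beta-glucosidases, 18 expansins and 12 glutathione S-transferases 0 were called, with medians between -0.04 and 0.01. In that order, 12, 15, 11, 11 and 7 members of these families had means under 16 on both media. The largest change in these families was that of the glutathione S-transferase GSTU25 (2.51 ± 0.85, adjusted p = 0.378). The 9 xyloglucan endotransglucosylases, which remodel cell walls, had a median of -0.66, and 0 were called. Of these, 8 were negative and 1 positive, beside 8141 positive of all 22746 probe sets. Means lay under 16 on both media for 4 of the 9.

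The plastid genome was measured through 69 probe sets, 1 per gene. In pnp1-1, 0 of them were called between the media and 3 had an unadjusted p under 0.05, beside 1258 of all 22746 probe sets. The plastid median log2 change was 0.06 and 45 were positive, beside 8141 of the 22746. With 1 array left out that median was 0.002 (+P replicate 1), 0.18 (+P replicate 3) or 0.14 (-P replicate 1), and with arrays centred it was -0.01. In WT 62 were negative and 7 positive, beside 12864 positive of the 22746, and 4 were called lower, beside 358 of the 22746. The WT median was -0.49. With 1 WT array left out it ran from -0.60 to -0.32, the latter without -P replicate 2. The change was more positive in pnp1-1 than in WT for 68 of the 69 (98.6%, beside 42.6% of all probe sets), with a median difference of 0.53 against -0.03 over all. None of these differences was called by limma, and the smallest adjusted p was 0.0682. An unadjusted p under 0.05 was found for 18 of the 69, beside 1185 of all 22746 probe sets. Plastid genes share long transcripts, so they are not independent of one another. The median plastid intensity per array was 961, 1174 and 1420 on +P and 1121, 1411 and 1594 on -P in pnp1-1, and 1341, 1066 and 1148 and then 789.7, 593 and 1106 in WT. In both genotypes the media overlapped by this measure.

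By function, the medians in pnp1-1 were 0.16 for 15 photosystem II genes, 0.31 for 7 of photosystem I, 0.15 for 6 of ATP synthase, 0.01 for 6 of the cytochrome b6f complex, -0.03 for 10 of the NDH complex and 0.00 for 15 ribosomal proteins. The WT medians of the same groups ran from -0.97 (photosystem I) to -0.22 (photosystem II). psbA, which encodes the D1 protein of photosystem II, read 3879, 5240.3 and 5818 on +P and 8795, 9387 and 10105 on -P in pnp1-1. All -P arrays were higher, yet the change of 0.94 ± 0.30 did not pass the test (adjusted p = 0.272). In WT psbA read 3064, 1985 and 1927 on +P and 808, 781 and 1879 on -P, a log2 change of -1.101 ± 0.30 (adjusted p = 0.0495), and the difference was 2.04 ± 0.42 (adjusted p = 0.108).

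rps14, a ribosomal protein gene, read 50.5, 82.2 and 98.6 on +P and 124, 159 and 241 on -P in pnp1-1 (1.18 ± 0.28, adjusted p = 0.0524), and lay under 8 on every WT array. psaA, of the photosystem I core, read 469, 618 and 676 on +P and 1267, 1077 and 1404 on -P in pnp1-1, again without overlap (1.096 ± 0.84, adjusted p = 1.00). rbcL, the large subunit of Rubisco, had overlapping media in pnp1-1 (8890 to 22189 on +P and 11503 to 20112 on -P, a change of 0.07 ± 0.33). It read 488 to 1106 over the 6 WT arrays. petD, of the cytochrome b6f complex, read 439 to 486 on +P and 619 to 768 on -P in pnp1-1, a change of 0.63 ± 0.32 (adjusted p = 1.00), and 4.41 to 4.85 on all WT arrays. The genotypes thus stood far apart in petD, rbcL and rps14 on both media. The 17 probe sets of mitochondrial genes had a median of -0.01 and 0 calls, with 13 of them under 16 on both media.

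**Figure D4:**
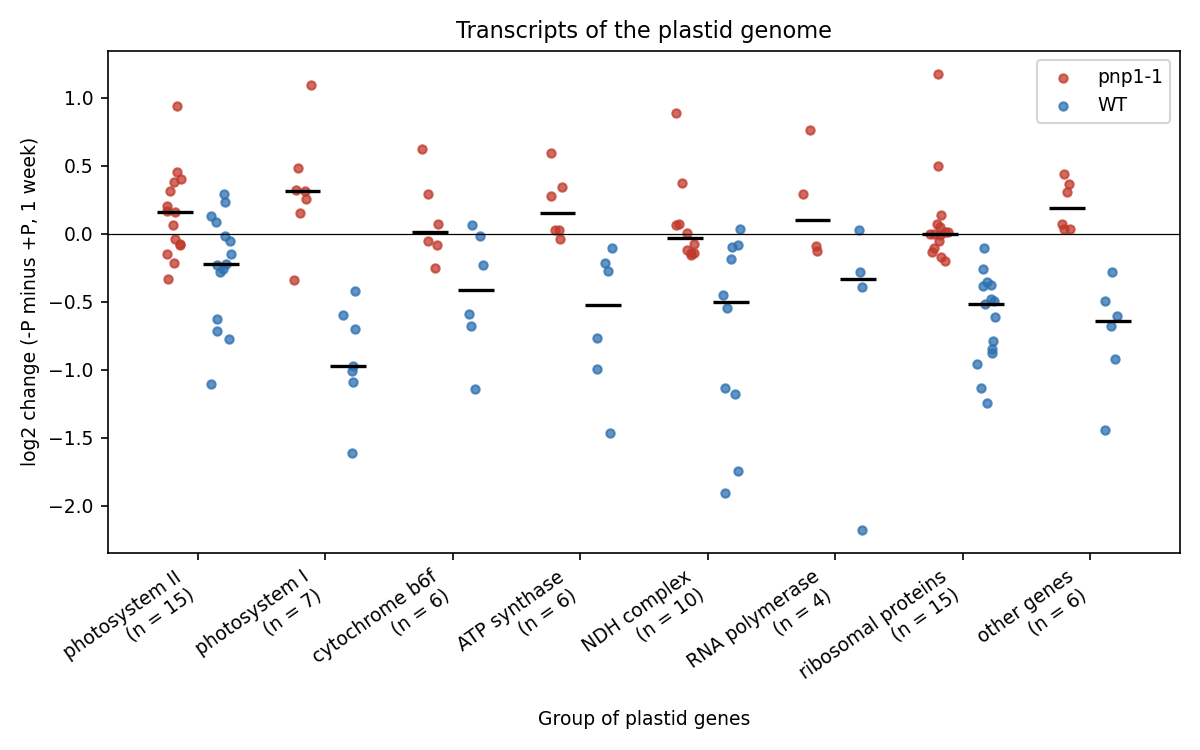
Log2 change (-P minus +P, 1 week) of 69 plastid genes by functional group, red for pnp1-1 and blue for WT, 1 point per gene and a black bar at the group median. In each group the red median is near or above 0 and the blue median below it.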

How the data were processed

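The authors deposited 1 intensity per probe set and array on a linear scale, in which all values lie between 2.5 and 49125. The submitters' processing notes name GCRMA, affy and limma, without versions or roles; no source used here gives the array design or says which arrays were normalized together. All 24 value columns belong to labelled samples.

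After log2, lmFit and eBayes of limma 3.58.1 (R 4.3.3) were run on all 24 arrays with 1 mean per group (16 residual degrees of freedom, prior worth 1.405). Of 22810 probe sets, 64 controls were dropped and 22746 tested. Adjusted p-values are Benjamini-Hochberg values over all probe sets within each comparison, called under 0.05; errors of changes are standard errors of that fit. Array data give no read depth, and the number of arrays limits the precision. The fit was tested on simulated data with independent noise for each probe set and array. Such data hold no deviations shared across an array, so that test does not cover them.

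GEO's platform annotation gave 1 gene to 13513 probe sets, several to 503 and none to 8730; 13436 matched a RefSeq locus (TAIR10.1). Genes named are those with the largest called changes and a mean of at least 64 in the higher group (at most 15 per direction; 10 falls qualified), list members, and the largest called interactions (at most 5 per direction, by the same limit); genes named after their values were seen are marked, and the plastid and family examples and all others with a gene name were also chosen so. PNP1 was among the genes to name and is not analysed here. The groups, gene lists and families were chosen with earlier results of these data known. Between the pnp1-1 media, within-group deviations of arrays with the same replicate number correlated at -0.004, 0.163 and 0.785. Only replicate 3 thus deviated strongly together on both media. Between the genotypes the deviations correlated at 0.546, 0.623 and 0.600 on -P and at -0.521, 0.184 and -0.440 on +P. The main fit used no pairing, and a block for the replicate number is among the alternatives. Alternatives were other fits, scalings, floors and weights, each array left out, and, chosen after seeing the data, the arrays with a raised lower quartile and the averaged WT pair.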

Additional observations from a re-analysis of the deposited data

Results flagged for a closer look

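These differences between groups were called by a test of the difference itself (limma interaction, Benjamini-Hochberg adjusted p under 0.05). Between the genotypes at 1 week 18 were called, and only those named above are listed. With the pnp1-1 change minus the WT change (log2), they were AT1G26410 (2.12), RR16 (2.12), CXE20 (0.41, at background throughout), AT5G09570 (-4.54), cwINV6 (-3.005) and AT1G67330 (-1.87). With the replicate number as a block in these 4 groups fitted alone, AT5G09570 alone of these 6 kept its call (adjusted p = 0.0157). Between the times in pnp1-1, 83 were called, and only those named by size are listed. With the 1-week change minus the 3 h change, they were AT1G26390 (7.31), AT5G20790 (7.06), AT1G08310 (6.78), AT2G04460 (5.99), AT4G37290 (4.80), AT1G73600 (-4.85), AT1G22440 (-3.36) and AT1G67330 (-1.999). AT1G26390 and AT4G37290 each had 1 high +P array at 3 h, replicate 2, at 145.9 and 49.8. Leaving out 1 array lost the time difference of AT5G20790 for 9 of the 12 arrays, with adjusted p up to 0.141. It did so for AT1G73600 with 8 arrays (up to 0.0746), for AT4G37290 with 7 (up to 0.086) and for AT1G22440 with 6 (up to 0.101). Those of AT1G08310 and AT2G04460 kept it under all 24 alternatives.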

How the results depend on the processing

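The 214 calls in pnp1-1 became 155 with the 2 groups fitted alone, 213 with each time alone, 206 with levels under 16 set to 16, 209 after quantile normalization, 204 with arrays centred and 180 at 2-fold or more. Array weights gave 2945 (1664 higher, 1281 lower, so 56.5% higher against 86.9%), and the replicate block with the groups alone 126 (108 higher, 18 lower, 79 of them shared with the 214). Without the 3 arrays of raised lower quartile, a choice made after seeing the data, there were 15 falls. Called list members were 2 with groups alone, 3 with each time alone, 3 with the block and 8 with array weights. WT calls were 298 with groups alone, 25 with the block, 4068 with array weights, 431 at 2-fold or more, 495 without the raised arrays and 292 with the close WT pair averaged. The 2 calls at 3 h were 0 with groups alone, each time alone, the block, the floor, dim probe sets left out, arrays centred or 2-fold. The 18 differences between genotypes were 3 with groups or each time alone, 2 with the block, 33 with the floor, 2594 with array weights and 65 without the raised arrays. The 83 differences between times were 714 with array weights; fitting each time alone is not possible for them. Leaving out 1 array gave 163 to 253 calls in pnp1-1 (141 to 227 higher, 19 to 33 lower), 276 to 1273 in WT, 1 to 3 at 3 h, 9 to 61 between genotypes and 45 to 117 between times. Of the changes of single named genes, 931 values stayed on their side of the threshold over the alternatives, 205 lost their call and 0 reversed. Which cause moved each count was not tested. Arrays centred on their medians moved the median of all probe sets to -0.09 from -0.02.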
